A study of Homo sapiens with 6 samples.

Results

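The response of A549 cells to an siRNA against ncRNA-a7 was described by setting the 2 arrays labelled ncRNA-a7 siRNA against the 2 arrays labelled control siRNA. These are 4 of the 6 arrays of the series, and the other 2 carry Snai1 siRNA. A549, an established line from a human lung adenocarcinoma, grows as epithelial sheets, and all 3 groups were grown in the same medium with serum. The labels give no siRNA sequence, dose or time after transfection, and a single siRNA reagent per target is all they name. Total RNA was hybridised to single-colour Illumina bead arrays. Genes were taken from every probe with 1 gene symbol in the platform annotation, 28044 of 48701 probes and 18833 genes. The labels do not say that replicates were separate cultures, so p-values cover array-to-array spread that may be purely technical, and the number of arrays limits the precision.

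ncRNA-a7 is a long noncoding RNA of the class once called activating or enhancer-like, and it is transcribed close to SNAI1. SNAI1 encodes a zinc finger repressor that lowers E-cadherin during epithelial to mesenchymal transition. Several programmes described below have well known regulators. ATF4 drives genes of amino acid uptake and synthesis when translation initiation is slowed, HSF1 drives cytosolic heat shock proteins, and interferon signalling drives antiviral genes.

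The target could not be followed on these arrays. The probe of TRERNA1, taken from general knowledge as the gene of ncRNA-a7, had a scanner signal of 117.9 and 117.8 on the control arrays and 129.7 and 132.5 on the ncRNA-a7 arrays. The SNAI1 probe had a signal of 142.7 and 144.2 on the control arrays and 138.8 and 146.5 on the ncRNA-a7 arrays. Both lay in the dimmer part of every array compared, at percentiles 3.95 to 26.7 for TRERNA1 and 29.8 to 48.0 for SNAI1, so neither was among the features tested. Fitted over all probes, limma gave TRERNA1 a log2 difference of 0.27 ± 0.14 (SE, Benjamini-Hochberg adjusted p = 0.427, n = 2 per group). These signals do not show whether the siRNA lowered its target.

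The arrays carried some epithelial genes at high level and others at low level. Over the 4 arrays compared, normalized signals of KRT8 ran from 12680 to 20690, those of KRT7 from 9196 to 9870 and those of CDH1 from 2971 to 4932. Of 10 lung epithelial markers 7 passed the filter on dim probes, and the alveolar genes SFTPC, SFTPA1 and NKX2-1 did not. KRT18, KRT19 and SFTPB passed it at low signals, from 126.7 to 184.7, 164.3 to 211.5 and 77.02 to 101.2. The leukocyte markers PTPRC and CD3E stayed at percentiles 25 to 48.4 and did not pass either. Across probes, replicate arrays had correlations of 0.994 to 0.995, and control arrays correlated with ncRNA-a7 arrays at 0.990. Mean scanner signals ran from 806 to 914 on these 4 arrays.

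With ncRNA-a7 siRNA, 962 named genes rose and 675 fell. With unnamed probes included, limma called 1962 of 19730 features (9.94%) at a Benjamini-Hochberg adjusted p under 0.05, 1141 higher (5.78%) and 821 lower (4.16%). At least 2-fold changes were called in 144 features (0.730%), 103 higher and 41 lower. The arrays of the 2 groups did not overlap in 10267 features (52.0%), among them all 1962 called. The median absolute log2 change of called features was 0.55, and the median standard error over all features was 0.125. Leaving out control replicate 1 left 563 calls and leaving out control replicate 2 left 676. Leaving out ncRNA-a7 replicate 1 or 2 left 1015 or 1120. Calls that held with each array left out in turn numbered 435, of which 294 were higher and 141 lower. Below, a gene is said to have risen or fallen where it passed this test, and levels are normalized signals on the linear scale that include an offset of 50, so folds understate the change of dim genes. Where several arrays cost a call when left out, the one with the highest adjusted p is named. Genes given as not called were picked as familiar members of their list after their values were seen.

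**Figure D1:**
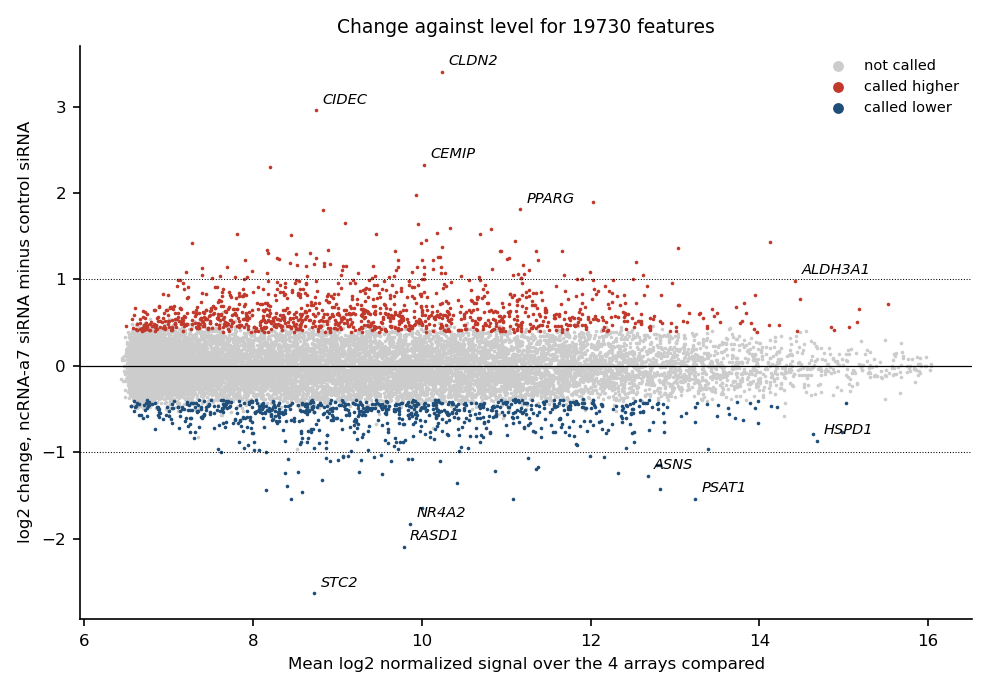
Each point is 1 of 19730 features, with the mean log2 normalized signal on the horizontal axis and the log2 change (ncRNA-a7 siRNA minus control siRNA) on the vertical axis; red points were called higher (1141), blue points lower (821) and grey points not called, and dotted lines mark a 2-fold change. CLDN2 and CIDEC lie highest and STC2 lowest among the named genes.

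The largest rise was in CLDN2, which encodes a pore-forming claudin of leaky epithelia. Its signal was 355.4 and 386.5 on the control arrays and 3890 and 3974 on the ncRNA-a7 arrays. The groups lay far apart with little spread within either, a log2 change of 3.41 ± 0.11 (± SE here and below, n = 2 per group, limma adjusted p = 3.06e-08). CIDEC, a protein that enlarges lipid droplets, read 159.8 and 148.6 against 1186 and 1218. Its arrays too stood well apart, by 2.96 ± 0.12 on the log2 scale (limma adjusted p = 8.28e-08), while a second CIDEC probe changed by 0.62. CEMIP, which takes part in hyaluronan breakdown, read 484.8 and 443.8 against 2800 and 1942, and its ncRNA-a7 arrays differed more from each other than its control arrays did. Its log2 change was 2.33 ± 0.16 (limma adjusted p = 9.57e-06).

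Further large rises fell on membrane, adhesion and signalling genes. RAB37, a small GTPase of secretory vesicles, read 117.6 and 150.2 on the control arrays and 621.8 and 689.3 on the ncRNA-a7 arrays, a 4.92-fold rise, and its other probes changed by -0.03, 0.89 and 1.21. DPY19L1, a putative C-mannosyltransferase, read 2255 and 2079 against 8252 and 7926, 3.73-fold higher. PPARG, a nuclear receptor of lipid storage, read 1302 and 1157 against 4270 and 4354, 3.51-fold higher, and a second PPARG probe changed by 1.74 on the log2 scale. In each of these genes both ncRNA-a7 arrays lay above both control arrays by more than the spread within a group. CEACAM1, an immunoglobulin-like adhesion molecule, rose 3.16-fold, and SLC51B, a subunit of the basolateral organic solute transporter, rose 3.12-fold. TGM2, a protein cross-linking transglutaminase, rose 3.0-fold, IGSF3 2.90-fold, BCAS1 2.88-fold and STK39, a kinase that regulates cation-chloride cotransport, 2.87-fold. AHNAK2 rose 2.72-fold, though its second probe changed by -0.01. TM4SF5, a tetraspanin-like membrane protein, rose 2.69-fold, PDZK1, a scaffold of apical transporters, 2.68-fold, and MORC4 3.02-fold. DCBLD2, a neuropilin-like membrane protein, read 10880 and 10880 against 28350 and 30640, with no overlap, and its second probe changed by 1.85.

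STC2, a secreted glycoprotein induced by cell stress, showed the largest fall. It read 1103 and 1007 on the control arrays and 175.2 and 165.6 on the ncRNA-a7 arrays. The ncRNA-a7 arrays lay far below the control arrays, a 6.19-fold fall with a log2 change of -2.63 ± 0.12 (limma adjusted p = 2.82e-07, n = 2 per group). RASD1, a Ras-like protein induced by glucocorticoids, read 1846 and 1790 against 441 and 412.5, a 4.26-fold fall. NR4A2, an orphan nuclear receptor of the immediate early class, read 1812 and 1697 against 471.7 and 517.2, a 3.55-fold fall, and a second probe changed by -1.46. EPCAM, an epithelial adhesion molecule, read 1662 and 1966 against 684 and 490.7, a log2 change of -1.64, while its second probe changed by -0.30. In all 4 genes the groups were clear of each other. DIRAS3, an imprinted Ras relative, fell 2.90-fold, ID4, an inhibitor of helix-loop-helix factors, 2.75-fold, ULBP1, a ligand of the NKG2D receptor, 2.72-fold and SLC2A3, a glucose transporter, 2.68-fold. IFRD1 fell 2.56-fold, NIBAN1 2.37-fold, PCK2, the mitochondrial phosphoenolpyruvate carboxykinase, 2.28-fold and DCAF12, a substrate receptor of a ubiquitin ligase, 2.25-fold. The calls of the 20 largest rises and the 20 largest falls held with each array left out in turn.

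**Figure D2:**
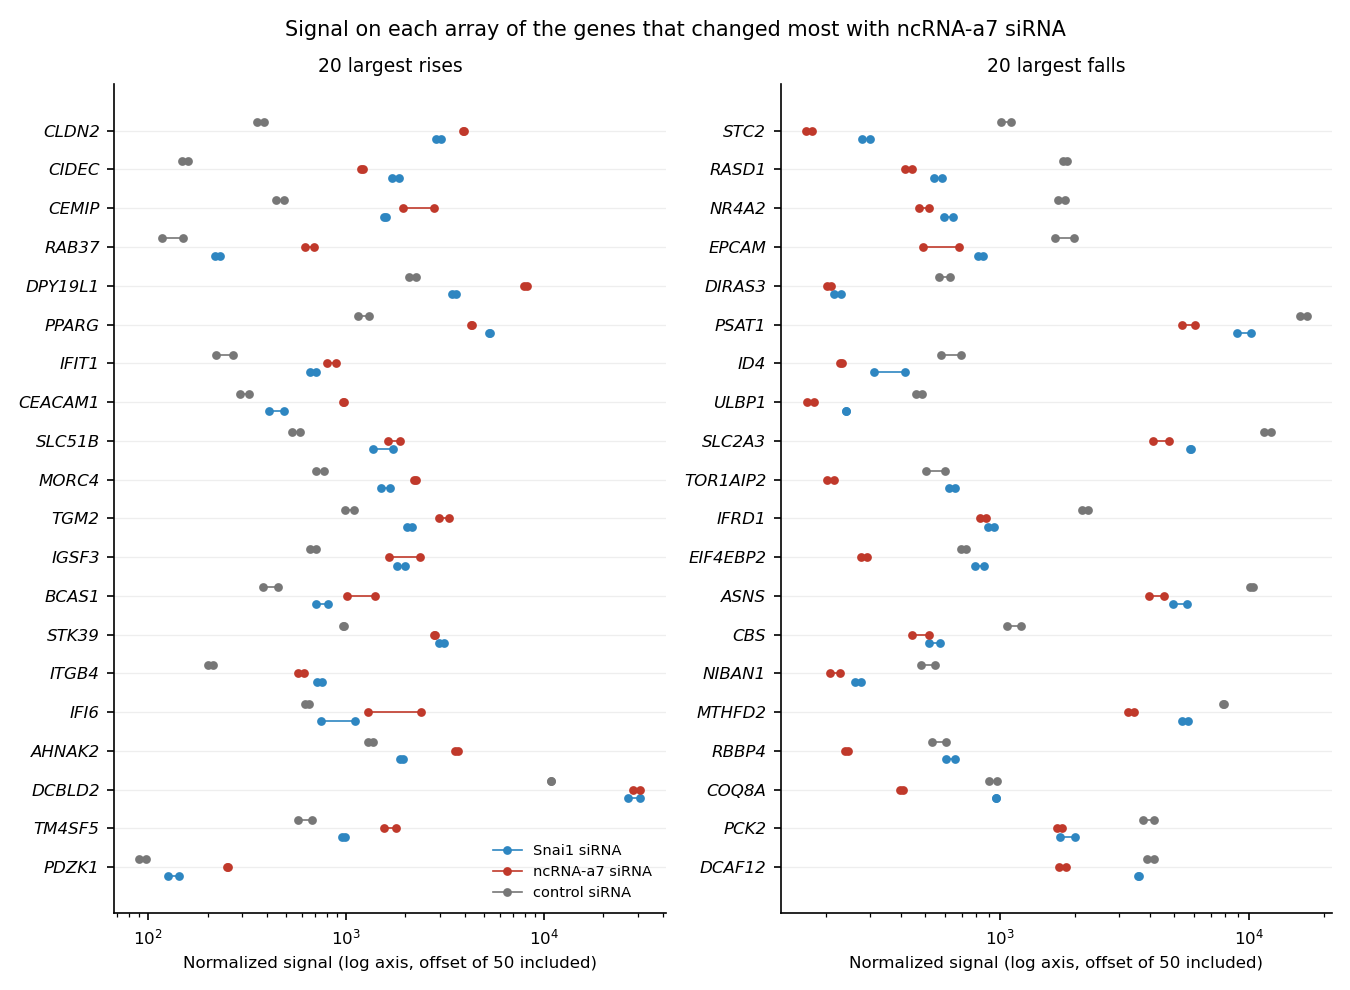
Normalized signal on each array (log axis, offset of 50 included) of the 20 largest rises (left) and 20 largest falls (right) with ncRNA-a7 siRNA; each dot is 1 array, grey for control, red for ncRNA-a7 and blue for Snai1 siRNA, and a line joins the 2 arrays of a group. The control dots and the ncRNA-a7 dots do not overlap in any gene shown, and the genes were picked for this. CEMIP, IGSF3, BCAS1, IFI6 and EPCAM show wide gaps between the 2 ncRNA-a7 arrays.

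Many genes of the amino acid response fell. Of 28 tested members of the ATF4 list 14 fell, against 4.16% of all features, and 1 rose, with a median log2 change of -0.41 against -0.01 over all features. With 1 array left out 8 to 12 fell, fewest without control siRNA replicate 1. ATF4 itself changed by -0.67 ± 0.12 (limma adjusted p = 0.00573, n = 2 per group), a call lost without control replicate 1, at an adjusted p of 0.0567. ASNS, asparagine synthetase, read 10320 and 10080 on the control arrays and 4524 and 3943 on the ncRNA-a7 arrays. The groups did not overlap, and the fall was 2.42-fold (limma adjusted p = 0.000109), with a change of -1.18 in a second probe. CBS and CTH, the enzymes that make cysteine from homocysteine, changed by -1.25 ± 0.13 and -1.08 ± 0.15. DDIT3, the stress factor CHOP, read 505.5 and 486.8 against 228.2 and 241.1, which did not overlap, and its log2 change was -1.08 ± 0.13. CHAC1, a glutathione-degrading enzyme, changed by -0.96 ± 0.13 and ATF3, a stress-induced bZIP factor, by -0.91 ± 0.13. The exception was SIRT4, a mitochondrial sirtuin, which read 161.7 and 147.7 against 299.3 and 331.7 and rose 2.04-fold. TRIB3, SESN2 and DDIT4 were not called, at log2 differences of -0.28, -0.34 and -0.16.

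Serine synthesis, amino acid uptake and tRNA charging, known to be under ATF4 control, were lower in part. PSAT1, an aminotransferase of serine synthesis, read 17010 and 15920 on the control arrays and 6031 and 5340 on the ncRNA-a7 arrays, a 2.90-fold fall. MTHFD2, a mitochondrial folate enzyme, read 7911 and 7824 against 3444 and 3243, a 2.35-fold fall. PHGDH, which opens the serine pathway, read 9653 and 9888 against 5424 and 6102, a 1.70-fold fall. None of these 3 genes had overlapping groups. Of 15 tested serine, glycine and folate enzymes 4 fell (26.7%) and 2 rose (13.3%), the thymidylate synthase TYMS among the latter (0.67 ± 0.11, limma adjusted p = 0.00326, n = 2 per group), a call lost with median scaling (adjusted p = 0.0572). Of 20 amino acid transporters 8 fell (40%) and 1 rose (5%), with a median of -0.28, and 2 to 8 fell with 1 array left out, fewest without control siRNA replicate 1. The glycine transporter SLC6A9 fell 1.96-fold and the glutamine carrier SLC1A5 1.71-fold, while SLC3A1, a subunit of the cystine and dibasic amino acid transporter, rose 1.73-fold. Of 18 cytosolic aminoacyl-tRNA synthetases 7 fell (38.9%) and 0 rose, with a median of -0.26, and 2 to 7 fell with 1 array left out, fewest without control siRNA replicate 2. GARS1, the glycyl-tRNA synthetase, read 15800 and 14230 against 7076 and 8380, without overlap, and fell 1.95-fold. YARS1, the tyrosyl-tRNA synthetase, fell 1.67-fold. The shares lower in these lists stood against 4.16% of all features.

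Promoter sequence is shown for 2 of the genes that fell, since the C/EBP-ATF response element through which ATF4 acts can be read in it. The letters TGATGNAA were searched on both strands in the RefSeq window from 250 bases before to 50 after each gene's start (GRCh38.p14). They were found in 7 of 29 fallen members of the 4 lists above (24.1%) and in 14 of 66 tested members with a window (21.2%). The shares were 1.98% of 10591 tested genes and 3.67% of 27305 genes with a window. Of 35116 windows only the first listed for each gene was counted. Below, all windows means these 27305. The 250 bases before the start are printed 5′ to 3′ on the gene's strand for ASNS at chr7:97872409-97872658 (minus strand) and CHAC1 at chr15:40953221-40953470 (plus strand), with the match in capitals. It lay 68 bases before the start in ASNS and 209 bases before it, on the opposite strand, in CHAC1.
ASNS: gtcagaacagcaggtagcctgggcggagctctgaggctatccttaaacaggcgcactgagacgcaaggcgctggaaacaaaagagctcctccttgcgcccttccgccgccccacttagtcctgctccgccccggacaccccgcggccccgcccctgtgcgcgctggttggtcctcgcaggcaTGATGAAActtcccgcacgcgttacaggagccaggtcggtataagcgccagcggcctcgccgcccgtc
CHAC1: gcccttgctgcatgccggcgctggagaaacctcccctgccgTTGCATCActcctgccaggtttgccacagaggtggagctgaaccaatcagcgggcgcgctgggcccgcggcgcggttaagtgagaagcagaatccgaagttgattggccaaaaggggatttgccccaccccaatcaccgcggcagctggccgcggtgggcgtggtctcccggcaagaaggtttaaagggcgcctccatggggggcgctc

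Heat shock proteins were also among the genes that fell. Of 34 tested genes 12 fell (35.3%, against 4.16% of all features) and 0 rose, with a median of -0.33. When single arrays were left out, 2 to 12 fell, fewest without control siRNA replicate 1. HSPD1, the mitochondrial chaperonin, read 36230 and 35140 on the control arrays and 19170 and 19980 on the ncRNA-a7 arrays. The groups were clearly apart for so bright a gene, a 1.82-fold fall with a log2 change of -0.87 ± 0.11 (limma adjusted p = 0.000628, n = 2 per group), and 2 other probes changed by -0.95 and -0.97. HSP90AB1, the constitutive cytosolic HSP90, read 33120 and 34220 against 18520 and 20390, also without overlap, a 1.73-fold fall. HSF1, the heat shock factor, changed by -0.53, a call lost without control replicate 1, at an adjusted p of 0.186. HSPA1A and HSPA1B, the stress-inducible HSP70 genes, changed by -0.58 and -0.88, calls lost without control replicate 1, at adjusted p-values of 0.0819 and 0.0867. These genes are near-identical, so which of them a probe measured is uncertain. HSPE1, the partner of HSPD1, was not called, at 0.38, nor were HSPA8, BAG3 and HSPB1, at -0.06, 0.08 and 0.08.

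Calls among chaperones of the endoplasmic reticulum went the other way. Of 28 tested 7 rose, against 5.78% of all features, and 0 fell, with a median of 0.15. Under the other processing settings 0 to 8 rose. Across fits without 1 array, 1 to 6 rose, fewest without control siRNA replicate 2. CRELD2, a secreted stress-inducible protein, read 1147 and 1112 on the control arrays and 1706 and 1764 on the ncRNA-a7 arrays. The groups did not overlap, and the log2 change was 0.62 ± 0.11 (limma adjusted p = 0.00535, n = 2 per group), but the call was lost without control replicate 2, at an adjusted p of 0.0538. SEL1L, an adaptor of protein disposal from this organelle, changed by 0.72 ± 0.14, HYOU1, an HSP70 relative, by 0.61 ± 0.12 and MANF by 0.58 ± 0.12. The SEL1L call was lost without control replicate 2, at an adjusted p of 0.0853, and those of HYOU1 and MANF without control replicate 1, at adjusted p-values of 0.0844 and 0.0927. HSPA5, HSP90B1 and XBP1, among the best known members, were not called, at 0.10, -0.05 and -0.13.

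The promoters of 1 gene from each chaperone group are shown side by side. The heat shock element was searched as GAA, TTC and GAA in a row with 2 free bases after each of the first blocks. The endoplasmic reticulum stress element was searched as CCAAT and CCACG with 9 free bases between them. Each was searched on its own and on both strands. The first was in 3 of 10 fallen heat shock genes with a window (30.0%), in 16.7% of tested members, in 0.321% of tested genes and in 0.487% of all windows. The second was in 3 of 7 risen reticulum genes (42.9%), in 25.9% of tested members, in 0.132% of tested genes and in 0.0806% of all windows. HSPA6, a stress-inducible HSP70 gene that changed by -0.60 ± 0.14 (limma adjusted p = 0.0171, n = 2 per group) and lost the call without control replicate 1, at an adjusted p of 0.153, is given at chr1:161524290-161524539 (plus strand), with a match on the opposite strand 74 bases before the start. CRELD2 is given at chr22:49918384-49918633 (plus strand), with a match on the opposite strand 80 bases before the start. Capitals mark the matches.
HSPA6: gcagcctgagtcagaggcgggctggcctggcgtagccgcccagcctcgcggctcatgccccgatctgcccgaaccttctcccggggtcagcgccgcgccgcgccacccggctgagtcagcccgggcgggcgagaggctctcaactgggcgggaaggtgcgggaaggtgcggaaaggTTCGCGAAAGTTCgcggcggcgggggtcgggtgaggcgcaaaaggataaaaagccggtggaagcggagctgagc
CRELD2: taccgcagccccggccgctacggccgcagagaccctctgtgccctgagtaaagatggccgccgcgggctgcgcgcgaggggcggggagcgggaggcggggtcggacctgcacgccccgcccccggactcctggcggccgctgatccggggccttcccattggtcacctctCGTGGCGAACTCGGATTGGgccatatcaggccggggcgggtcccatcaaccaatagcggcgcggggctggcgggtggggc

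Interferon-stimulated genes were among the risers. Of 41 tested members 15 rose (36.6%, against 5.78% of all features) and 0 fell, with a median of 0.33. With 1 array left out 5 to 13 rose, fewest without control siRNA replicate 1. IFIT1, an antiviral RNA-binding protein, read 269.4 and 221 on the control arrays and 806.1 and 893.8 on the ncRNA-a7 arrays. The groups did not overlap, and the log2 change was 1.80 ± 0.13 (limma adjusted p = 1.9e-05, n = 2 per group), while a second IFIT1 probe changed by 0.22. IFI6 read 620.5 and 654 against 1289 and 2386, so its ncRNA-a7 arrays differed widely although both lay above control. Its log2 change was 1.46 ± 0.24 (limma adjusted p = 0.00319), a call lost with a trended robust variance prior (adjusted p = 0.103). DDX60, an RNA helicase, read 146.6 and 153.6 against 260 and 264, a 1.75-fold rise, and PARP9, of the ADP-ribosyltransferase family, rose 1.67-fold. ISG15, IFITM1 and IFIH1 were not called, at -0.01, 0.01 and 0.11.

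The promoters of the 2 leading members are shown because both hold the interferon-stimulated response element, searched as 2 blocks of GAAA with 2 free bases between them, on both strands. It was in 9 of 14 risen members with a window (64.3%), in 61.1% of tested members, in 2.83% of tested genes and in 3.65% of all windows, so risen members held it about as often as tested members did. IFIT1 lies at chr10:89392373-89392622 (plus strand), with 2 matches on the opposite strand, 116 and 103 bases before the start. IFI6 lies at chr1:27672193-27672442 (minus strand), with 3 matches from 156 to 93 bases before the start. Capitals mark the matches.
IFIT1: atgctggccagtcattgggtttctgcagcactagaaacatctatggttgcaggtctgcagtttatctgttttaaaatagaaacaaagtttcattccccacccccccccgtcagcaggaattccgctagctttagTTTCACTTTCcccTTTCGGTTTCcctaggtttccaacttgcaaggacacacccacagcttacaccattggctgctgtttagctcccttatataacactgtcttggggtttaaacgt
IFI6: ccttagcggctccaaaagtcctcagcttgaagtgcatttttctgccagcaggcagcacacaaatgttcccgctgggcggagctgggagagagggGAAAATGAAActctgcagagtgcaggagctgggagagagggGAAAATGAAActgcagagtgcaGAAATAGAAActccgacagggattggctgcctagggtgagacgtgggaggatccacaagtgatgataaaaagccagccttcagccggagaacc

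Cadherins of both epithelial and mesenchymal cells rose. CDH1, which encodes E-cadherin, read 2971 and 2980 on the control arrays and 4894 and 4932 on the ncRNA-a7 arrays, close within each group and well apart between them. Its log2 change was 0.72 ± 0.11 (limma adjusted p = 0.00194, n = 2 per group). CDH2, which encodes N-cadherin, read 380.5 and 340.2 against 814.2 and 793.2, without overlap, a 2.23-fold rise. Of 20 tested cadherin, catenin and desmosome genes 6 rose (30%) and 0 fell (5 to 6 rose with 1 array left out). NECTIN3 rose 2.11-fold, the desmosomal plakin PPL 1.78-fold and CDH6 1.74-fold. Of 25 claudin and tight junction genes 3 rose (12%), CLDN2 among them, and 2 fell (8%). The polarity gene CRB3 changed by -0.88 ± 0.15, a call lost without control replicate 1, at an adjusted p of 0.0563. Of 11 keratins 2 rose (18.2%) and 1 fell (9.09%), and KRT80 was 2.0-fold higher. These shares stood against 5.78% higher and 4.16% lower over all features, and in lists this small 1 gene moves them widely. KRT8 and KRT18, which pair in simple epithelia, changed by 0.49 and -0.42, calls lost without control replicate 1, at adjusted p-values of 0.205 and 0.290, and the KRT18 probe was dim, at 184.7 and 160.1 against 126.7 and 130.1.

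Integrin and laminin chains, which join epithelial cells to the basement membrane, were among the risers. Of 20 tested integrin and laminin genes 9 rose (45%, against 5.78% of all features) and 0 fell, with a median of 0.29. When single arrays were left out, 3 to 9 rose, fewest without control siRNA replicate 1. ITGB4, the hemidesmosomal integrin chain, read 213.8 and 201.6 on the control arrays and 569.7 and 613.6 on the ncRNA-a7 arrays, a 2.85-fold rise. ITGA3, a laminin-binding chain, read 710.9 and 764.2 against 1829 and 1613, a 2.33-fold rise. LAMC1, the common laminin gamma chain, read 4009 and 3847 against 9289 and 8753, a 2.30-fold rise. All 3 were clear of control on both arrays. ITGA5 and ITGA6 were not called, at 0.01 and 0.23.

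Extracellular proteases and their inhibitors gave calls in 1 direction. Of 31 tested 10 rose (32.3%, against 5.78% of all features) and 0 fell, with a median of 0.32, and 5 to 9 rose with 1 array left out, fewest without control siRNA replicate 1. PLAU, the urokinase plasminogen activator, read 501.2 and 539.4 on the control arrays and 1324 and 1285 on the ncRNA-a7 arrays, without overlap, a 2.51-fold rise. TIMP2 and RECK, which restrain metalloproteinases, rose 1.99-fold and 1.94-fold, and SERPINE2, which inhibits serine proteases, changed by 0.80 ± 0.14 (limma adjusted p = 0.00380, n = 2 per group). The membrane metalloproteinase MMP24 rose 1.75-fold, while MMP2 and MMP14 were not called, at -0.34 and -0.09.

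Of 34 mesenchymal marker and matrix genes 11 rose (32.4%, against 5.78% of all features) and 0 fell, with a median of 0.19, and 7 to 11 rose with 1 array left out, fewest without control siRNA replicate 1. AXL, a receptor tyrosine kinase, read 1543 and 1465 on the control arrays and 2973 and 3265 on the ncRNA-a7 arrays, a 2.07-fold rise. CCN2, a matricellular growth factor, read 1700 and 1884 against 3215 and 3277, a 1.81-fold rise. Neither gene's groups overlapped. COL18A1 rose 1.77-fold and ACTA2, smooth muscle actin, changed by 0.91 ± 0.14. VIM, which encodes vimentin, read 17220 and 17520 against 22710 and 21350 and was not called (0.34 ± 0.11, limma adjusted p = 0.0804, n = 2 per group). ZEB1, ZEB2, TWIST1 and FN1 were not called either, at -0.03, -0.01, -0.32 and 0.23. Of the 8 fibroblast markers 4 were tested and 0 called by limma (0 at an unadjusted p under 0.05), the defining markers COL1A2, PDGFRB, FAP and THY1 did not pass the filter, and the summed signal was 1051 and 1102 on the control arrays and 1089 and 1125 on the ncRNA-a7 arrays. These sums overlapped. In bulk RNA, fewer cells of a type and less RNA per cell cannot be told apart.

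Among leukocyte markers 3 of the 4 tested rose and 0 fell. Over all features 5.78% rose, and in marker lists of 3 or 4 tested genes 1 gene moves the share widely. CD14, a lipopolysaccharide coreceptor, read 176.3 and 159.9 on the control arrays and 338.4 and 335.9 on the ncRNA-a7 arrays, a 2.01-fold rise. ITGAM, a myeloid integrin chain, read 114.7 and 112.5 against 202.2 and 192.9, a 1.74-fold rise. CD68, a lysosomal protein found in many cells besides macrophages, changed by 0.64 ± 0.13 (limma adjusted p = 0.0108, n = 2 per group), a call lost without control replicate 2, at an adjusted p of 0.0839. The first 2 genes were clear of control on both arrays. LYZ was not called, at -0.15, and PTPRC and CD3E, which define leukocytes, lay in the dim part of the arrays. Summed over the 6 markers on the array the signal was 2055 and 1984 on the control arrays and 3378 and 2840 on the ncRNA-a7 arrays. Of 3 endothelial markers tested ESAM rose by 0.66 ± 0.12, a call lost without control replicate 1, at an adjusted p of 0.0740, and VWF, CDH5 and TEK did not pass the filter.

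Transporters of bile acids, lipids and conjugates were among the risers. Of 26 tested ABC transporters and organic solute carriers 11 rose (42.3%, against 5.78% of all features) and 0 fell, with a median of 0.32. Across fits without 1 array, 7 to 11 rose, fewest without control siRNA replicate 1. ABCC3, a basolateral exporter of conjugates, read 4923 and 5591 on the control arrays and 14040 and 13040 on the ncRNA-a7 arrays, a 2.58-fold rise. ABCA1, the cholesterol exporter, read 1416 and 1273 against 3256 and 3068, a 2.35-fold rise. Both were clear of control, with limma adjusted p = 5.77e-05 and 0.000103 (n = 2 per group). SLCO2B1, an organic anion uptake carrier, changed by 1.05 ± 0.12, ABCB6 by 0.87 ± 0.12 and ABCG1, a sterol exporter, by 0.82 ± 0.12. ABCB1, the multidrug exporter, and ABCC2 were not called, at 0.24 and 0.36.

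Lipid storage genes gave fewer calls beyond CIDEC and PPARG. Of 36 lipid droplet and PPAR target genes 7 rose (19.4%) and 2 fell (5.56%), with a median of 0.20, and 3 to 6 rose with 1 array left out, fewest without control siRNA replicate 1. MGLL, monoacylglycerol lipase, read 357.1 and 380.9 on the control arrays and 726 and 708.4 on the ncRNA-a7 arrays, without overlap, and rose 1.94-fold. The PPAR targets PLIN2, ANGPTL4 and PDK4 were not called, at 0.33, 0.22 and -0.15. The PPAR element, searched as 2 blocks of AGGTCA with 1 free base between them on both strands, was in 0 of 5 risen members with a window in 0.0283% of tested genes and in 0.0220% of all windows. Against 5.78% higher and 4.16% lower over all features, of 34 cholesterol and fatty acid synthesis genes 4 rose (11.8%) and 1 fell (2.94%). SCD5, a stearoyl-CoA desaturase, changed by 1.04 ± 0.14 (limma adjusted p = 0.000746, n = 2 per group), but its other probes changed by 0.06 and -0.17, and the mean of its probes was not called (adjusted p = 0.0968).

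Detoxification genes split, to be read against 5.78% higher and 4.16% lower over all features. Of 35 NRF2 target and detoxification genes 5 rose (14.3%) and 3 fell (8.57%). ALDH3A1, an aldehyde dehydrogenase, read 14850 and 16460 on the control arrays and 29630 and 32350 on the ncRNA-a7 arrays, EPHX1, an epoxide hydrolase, 799.8 and 645.1 against 1319 and 1430, and AKR1B10, an aldo-keto reductase, 37250 and 36520 against 61510 and 59520. In none of them did the groups overlap, and the rises were 1.98-fold, 1.91-fold and 1.64-fold. HMOX1, heme oxygenase, read 5920 and 6327 against 4011 and 3319 instead, a 1.68-fold fall. Among 41 genes of hypoxia and glycolysis 9 rose (22%) and 2 fell (4.88%), and 4 to 9 rose with 1 array left out, fewest without control siRNA replicate 1. EPAS1, which encodes HIF-2alpha, read 4008 and 4205 against 8757 and 7715, a 2.0-fold rise without overlap. PDK3, a pyruvate dehydrogenase kinase, rose 1.77-fold, EGLN3, an oxygen-sensing hydroxylase, 1.76-fold and CA12, a carbonic anhydrase, 1.58-fold, against the 2.68-fold fall of the glucose transporter SLC2A3.

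Signalling genes moved in both directions, and their shares are set against 5.78% higher and 4.16% lower over all features. Of 38 Wnt pathway genes 6 rose (15.8%) and 1 fell (2.63%), and secreted antagonists were among the risers. DKK1 read 17770 and 17160 on the control arrays and 31290 and 28460 on the ncRNA-a7 arrays, DKK3 931.2 and 884.3 against 1737 and 1709, and SFRP1 610.9 and 614.3 against 1075 and 1079. All 3 antagonists were higher on both arrays, by 1.71-fold, 1.90-fold and 1.76-fold. MYC, a growth-promoting transcription factor, read 5131 and 5070 against 3283 and 3247, a 1.56-fold fall without overlap. Of 46 TGF-beta and BMP genes 5 rose (10.9%) and 3 fell (6.52%). BMP1, a procollagen protease, rose 2.46-fold and SMAD6, an inhibitor of BMP signalling, 1.79-fold.

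Of 30 receptor tyrosine kinases 5 rose (16.7%) and 2 fell (6.67%). ROR1, a receptor for Wnt5a, read 268.2 and 260.9 on the control arrays and 541.4 and 646.3 on the ncRNA-a7 arrays, a 2.24-fold rise, and its second probe changed by 1.06. KIT, the stem cell factor receptor, read 265.1 and 253.5 against 156.8 and 161.5, a 1.63-fold fall, and its second probe changed by -0.80. Each gene's groups were clear of each other. Called shares in this group of lists compare with 5.78% higher and 4.16% lower over all features. Of 45 immediate early and MAPK feedback genes 6 rose (13.3%) and 7 fell (15.6%). The feedback inhibitors SPRED1 and DUSP5 rose 2.38-fold and 1.60-fold. The early response factors NR4A2, KLF4 and ATF3 fell 3.55-fold, 1.93-fold and 1.88-fold, and a second KLF4 probe changed by -0.10. Of 31 Hippo pathway and YAP target genes 4 rose (12.9%) and 2 fell (6.45%), with NT5E, the ectonucleotidase CD73, 1.91-fold higher. Of 42 NF-kappaB, chemokine and cytokine genes 3 rose (7.14%) and 3 fell (7.14%), shares near those of all features, with the eotaxin CCL26 1.97-fold higher. Of 23 Notch pathway genes 2 rose (8.7%) and 3 fell (13%), and of 41 cytokine receptor and JAK-STAT genes 5 rose (12.2%) and 3 fell (7.32%). No call of these last 2 lists held with each array left out, for example that of JAG1, a Notch ligand, lost without control replicate 1, at an adjusted p of 0.191, and that of IL17RB, a cytokine receptor chain, lost without control replicate 1, at an adjusted p of 0.156.

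Replication-dependent histone genes, whose transcripts are made in S phase, gave 6 rises (20%, against 5.78% of all features) and 0 falls among 30 tested (4 to 6 rises with 1 array left out, fewest without control siRNA replicate 1). H1-2 read 540.6 and 588.7 on the control arrays and 1065 and 1382 on the ncRNA-a7 arrays, H2BC5 923.7 and 941.1 against 1667 and 1999, and H2AC18 330.4 and 309.6 against 651.3 and 525. The groups did not overlap in these genes, and the rises were 2.15-fold, 1.96-fold and 1.83-fold. The summed signal of all 30 was 37570 and 34620 on the control arrays and 26690 and 40470 on the ncRNA-a7 arrays, so the 2 ncRNA-a7 arrays lay on either side of the controls. Histone genes are near-identical copies, and which copy a probe measured is uncertain.

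Calls among cell cycle genes depended on which arrays entered the fit, and not on 1 array alone. Of 55 G1/S and replication genes 7 fell (12.7%) and 1 rose (1.82%), with a median of -0.19, but 0 to 6 fell with 1 array left out, fewest without control siRNA replicate 1. Of 64 G2/M and mitosis genes 4 fell (6.25%) and 0 rose, with a median of -0.08, and 0 to 3 fell with 1 array left out, again fewest without control siRNA replicate 1. Over all features 4.16% fell and 5.78% rose, so the G2/M share lay near the background. AURKA, the mitotic kinase Aurora A, read 9690 and 9089 on the control arrays and 5996 and 5999 on the ncRNA-a7 arrays. It lay below control on both arrays (log2 change -0.65 ± 0.11, limma adjusted p = 0.00405, n = 2 per group), but the call was lost without control replicate 1, at an adjusted p of 0.0621. Its second probe changed by -0.69. Among 32 apoptosis regulators 3 rose (9.38%) and 3 fell (9.38%). CASP9, the initiator caspase of the mitochondrial pathway, read 764.2 and 651.2 against 346.1 and 311, without overlap, a 2.15-fold fall, and its second probe changed by -0.72. Of 33 CDK inhibitor and p53 target genes 2 rose (6.06%) and 4 fell (12.1%), and CDKN1A, the CDK inhibitor p21, changed by 0.54 ± 0.12, a call lost without control replicate 2, at an adjusted p of 0.139.

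Of 36 RNA interference and microRNA genes 6 fell (16.7%, against 4.16% of all features) and 1 rose, with a median of -0.14, and 3 to 5 fell with 1 array left out, fewest without control siRNA replicate 1. DICER1, the RNase that makes mature microRNAs, read 2238 and 2201 on the control arrays and 1314 and 1393 on the ncRNA-a7 arrays, and its other probes changed by -0.07 and -0.56. DCP2, the decapping enzyme of mRNA decay, read 1956 and 1954 against 1029 and 1012. Neither gene's groups overlapped, and the falls were 1.64-fold and 1.92-fold (limma adjusted p = 0.00229 and 0.000515, n = 2 per group). DROSHA, DGCR8 and AGO1 were not called, at -0.01, -0.02 and 0.20. Of 66 polycomb, DNA methylation and histone modifying enzymes 6 fell (9.09%) and 0 rose, and 1 to 4 fell with 1 array left out, fewest without control siRNA replicate 1. RBBP4, a histone-binding subunit of several chromatin complexes, read 529.8 and 602.3 against 244.4 and 238.3, a 2.34-fold fall, while its second probe changed by -0.12. Of 28 Mediator subunits 2 fell (7.14%) and 0 rose, with a median of -0.21, and 0 to 3 fell with 1 array left out, fewest without control siRNA replicate 1. Both shares compare with 4.16% of all features.

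In the translation machinery, repressors of cap-dependent initiation were lower. EIF4EBP2 read 728 and 695.5 on the control arrays and 291.6 and 276.7 on the ncRNA-a7 arrays, and EIF4EBP1 read 632 and 572.3 against 329.3 and 316.5. Both were clear of control on both arrays, and the falls were 2.50-fold and 1.86-fold. Of 50 initiation and elongation factors 5 fell (10%, against 4.16% of all features) and 1 rose (2%). Of 67 ribosomal protein genes 4 fell (5.97%), of 67 splicing factors 3 fell (4.48%), and of 38 proteasome subunits 1 fell (2.63%), all near the 4.16% of all features. Of 67 oxidative phosphorylation subunits 3 rose (4.48%), near the 5.78% of all features. RPS7 fell 2.08-fold and RPL28 1.80-fold, but ribosomal protein genes have many processed copies and a probe may not tell them apart.

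Secreted and surface proteins of host defence gave calls in both directions, against 5.78% higher and 4.16% lower over all features. Of 41 complement, coagulation and acute phase genes 8 rose (19.5%) and 2 fell (4.88%). SERPINA3, an acute phase protease inhibitor, rose 1.81-fold, APOH 1.78-fold and coagulation factors F7 and F5 1.72-fold and 1.66-fold. CD55, which protects cells from complement, read 7118 and 6076 on the control arrays and 3219 and 3123 on the ncRNA-a7 arrays, without overlap, a 2.07-fold fall. Of 18 NKG2D ligands and MHC class I genes 3 fell (16.7%) and 1 rose (5.56%). MICB, an NKG2D ligand like ULBP1, read 1502 and 1356 against 804.4 and 870.3, also without overlap, a 1.71-fold fall.

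Vesicle and lysosome genes gave more calls higher than lower. Of 46 Rab GTPases 4 rose (8.7%) and 0 fell, a share near the 5.78% of all features, with RAB37 and RAB8B (1.73-fold) among the risers. Of 60 lysosome and autophagy genes 8 rose (13.3%) and 3 fell (5%), and 2 to 8 rose with 1 array left out, fewest without control siRNA replicate 1. The sialidase NEU1 was 1.88-fold and the sulfatase IDS 1.74-fold higher, and other IDS probes changed by -0.03 and 0.37. Of 27 nuclear receptors 1 rose (3.7%), which was PPARG, and 2 fell (7.41%). Of 17 circadian clock genes 1 rose (5.88%) and 1 fell (5.88%), where all features gave 5.78% and 4.16%. Over 49 lists, 25 had more members higher than lower, 19 more lower and 5 equal counts, and 41 had their fewest calls without control siRNA replicate 1. Wherever a list's fewest calls are named, tied fits were credited to the array that comes first in the series.

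**Figure D3:**
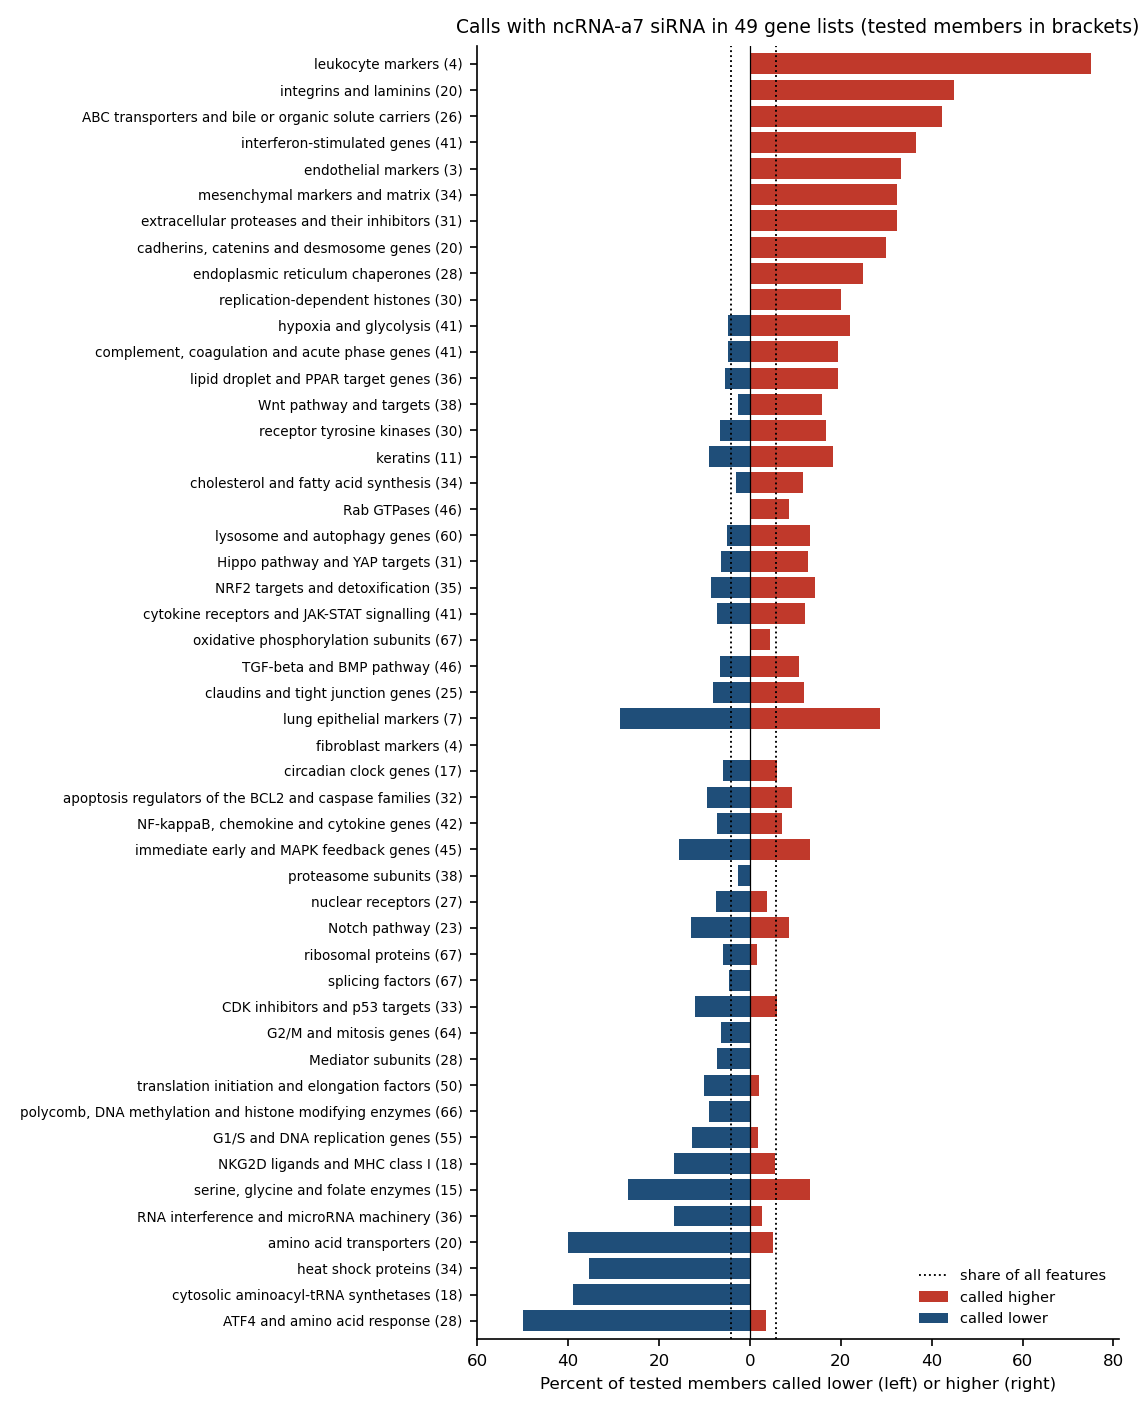
Percent of tested members called higher (red, to the right) or lower (blue, to the left) with ncRNA-a7 siRNA in each of 49 gene lists, with the number tested in brackets; dotted lines mark the shares of all features, 5.78% higher and 4.16% lower. Integrins and laminins, ABC transporters and interferon-stimulated genes reach 36.6% to 45.0% higher, and the amino acid response reaches 50% lower; the marker lists hold 3 to 7 tested genes, so a single gene moves their shares widely.

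**Figure D4:**
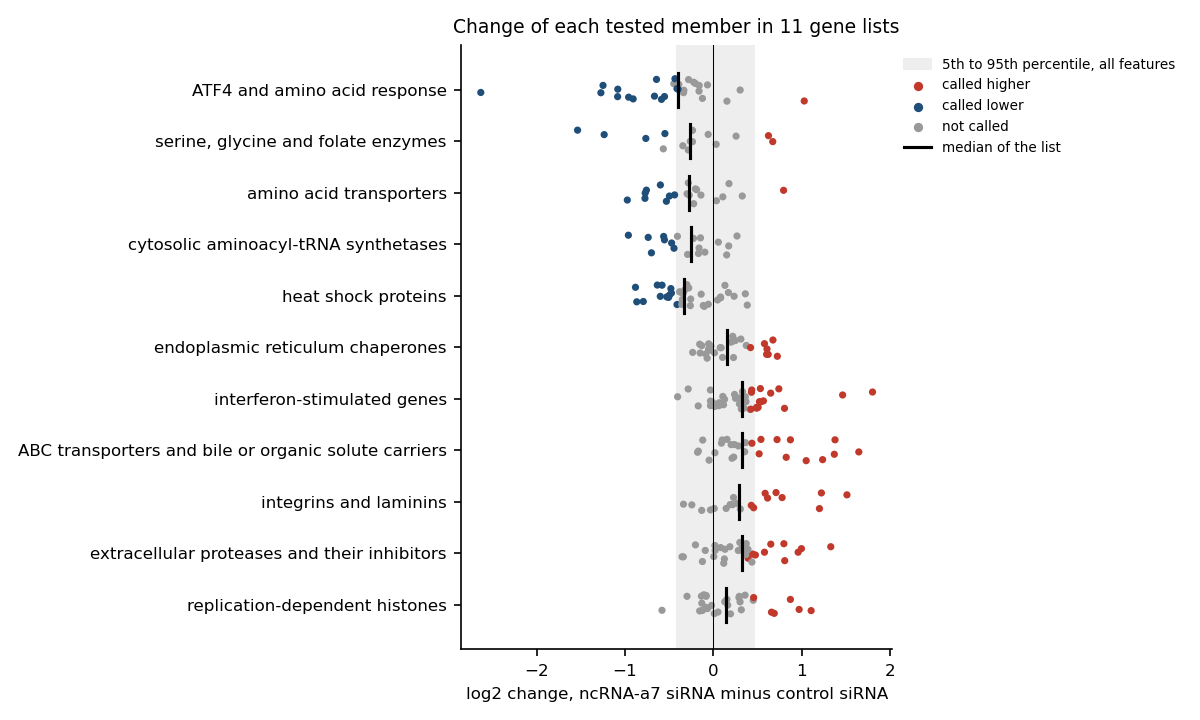
Log2 change (ncRNA-a7 siRNA minus control siRNA) of each tested member of 11 gene lists, with red for called higher, blue for called lower, grey for not called and a black bar at the list's median; the grey band spans the 5th to 95th percentile of all features, -0.41 to 0.46. The medians run from -0.41 for the amino acid response to 0.33 for interferon-stimulated genes.

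Where the response differed from that to the other siRNA was tested directly, by setting ncRNA-a7 siRNA against Snai1 siRNA in the same fit. Limma called 1601 of 19730 features (8.11%), 935 higher with ncRNA-a7 siRNA and 666 lower, so 58.4% were higher. The list counts that follow stand against these counts over all features. Tested members numbered 18 synthetases, 20 integrins and laminins, 34 heat shock proteins, 26 carriers, 30 histones, 41 interferon-stimulated genes and 28 ATF4 genes. With median scaling 493 were higher and 205 lower, 70.6% higher. Leaving out Snai1 replicate 2 left 341 calls and leaving out Snai1 replicate 1 left 710. Leaving out ncRNA-a7 replicate 1 or 2 left 614 or 935, and leaving out control replicate 1 left 1004. Of the aminoacyl-tRNA synthetases 0 were higher and 0 lower than with Snai1 siRNA, and of the integrins and laminins 0 and 0. At an unadjusted p under 0.05 in limma, 3 synthetases were higher and 3 lower, and 1 integrin or laminin gene was higher and 1 lower. How many of all features passed that unadjusted threshold between the siRNAs was not counted, so these counts lack a background share. Against control siRNA 4797 of 19730 features passed it. Against the same control arrays, the synthetases had a median of -0.26 with ncRNA-a7 siRNA and -0.24 with Snai1 siRNA, and the integrins and laminins 0.29 and 0.32. Of the heat shock proteins 5 were lower than with Snai1 siRNA and 0 higher (2 to 4 lower with 1 array left out, fewest without Snai1 siRNA replicate 1). HSPD1 read 37070 and 37910 with Snai1 siRNA, above both ncRNA-a7 arrays, a log2 difference of -0.94 ± 0.11 (limma adjusted p = 0.000687, n = 2 per group). Of the ABC and organic solute carriers 8 were higher than with Snai1 siRNA, but 0 to 8 with 1 array left out, fewest without Snai1 siRNA replicate 2. Of the histones 5 were higher (2 to 5 with 1 array left out, fewest without Snai1 siRNA replicate 1), H2AC6 and H2BC5 by 0.98 ± 0.11 and 1.00 ± 0.13. Of the interferon-stimulated genes 8 were higher and 0 lower (2 to 6 higher with 1 array left out, fewest without Snai1 siRNA replicate 2). In the ATF4 list 1 gene was lower, STC2, and 1 higher. At an unadjusted p under 0.05 in limma 10 were lower and 4 higher, again without a background share. Against the shared control arrays, 14 of 28 ATF4 genes fell with ncRNA-a7 siRNA (median -0.41) and 12 of 28 with Snai1 siRNA (median -0.25). STC2 read 277.2 and 300.9 with Snai1 siRNA, above the ncRNA-a7 arrays and below the controls, a difference of -0.76 ± 0.12 (limma adjusted p = 0.00321).

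Several of the largest changes against control were smaller against Snai1 siRNA. CLDN2 was 0.42 above Snai1 siRNA on the log2 scale and CIDEC 0.57 below it (limma adjusted p = 0.0427 and 0.0126, n = 2 per group). PPARG, RASD1 and NR4A2 were not called, at -0.3, -0.39 and -0.32. RAB37, DPY19L1 and CEMIP lay 1.54, 1.21 and 0.57 above Snai1 siRNA. The calls of CLDN2, CIDEC and CEMIP between the siRNAs were each lost in some fits with 1 array left out. Their log2 differences then ran from 0.38 to 0.46, from -0.62 to -0.51 and from 0.3 to 0.84. Some single genes stood apart from both other groups. KRT80, an epithelial keratin, read 5085 and 5263 on the ncRNA-a7 arrays, 2536 and 2639 on the control arrays and 1295 and 1700 on the Snai1 arrays. S100A10, the partner of annexin A2, read 45400 and 48400, 28960 and 30430, and 13000 and 14780 in the same order. In both genes the ncRNA-a7 arrays were highest and the Snai1 arrays lowest, with differences from Snai1 siRNA of 1.80 ± 0.14 and 1.76 ± 0.12 (limma adjusted p = 6.2e-05 and 6.2e-05, n = 2 per group). The rise of S100A10 over control was lost without control replicate 1, at an adjusted p of 0.0688. KCNJ16, a potassium channel, read 372.8 and 369.2 on the ncRNA-a7 arrays, 180.8 and 167.3 on the control arrays and 150.2 and 131.5 on the Snai1 arrays, and its second probe changed by -0.10 against control. ANXA13, an epithelial annexin, read 543.1 and 558.1, 249.9 and 238.5, and 210.2 and 223 in the same order. For these genes too no array of the other groups reached the ncRNA-a7 arrays. IFNAR1, a chain of the type I interferon receptor, was 1.37 ± 0.12 above Snai1 siRNA, and its rise of 0.61 over control was lost without control replicate 1, at an adjusted p of 0.0802. PAFAH1B1, a regulator of dynein, changed by 0.41 ± 0.12 against control and lost that call with every array left out in turn, the highest adjusted p being 0.269 without control replicate 2.

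TOR1AIP2, a partner of torsins, was lowest with ncRNA-a7 siRNA, at 214.8 and 202. It read 597.1 and 502.5 on the control arrays and 621.5 and 659.1 on the Snai1 arrays. SDC4, a heparan sulfate proteoglycan, read 113.4 and 129.6, 201.8 and 211.8, and 372.2 and 356 in the same order. COQ8A, a kinase-like protein of coenzyme Q synthesis, read 405.9 and 394.1, 899.4 and 971.4, and 963.3 and 959.7. No ncRNA-a7 array overlapped another group in any of these 3 genes, which were picked among genes called against both groups. EIF4EBP2, RBBP4, PPP2R5A, a regulatory subunit of protein phosphatase 2A, and NEMP1, a nuclear envelope protein, also lay below Snai1 siRNA, by log2 differences of -1.54, -1.38, -1.17 and -1.13. The calls of these 7 genes against Snai1 siRNA held with each array left out. AURKA too was lower than with Snai1 siRNA (log2 difference -0.81 ± 0.11, limma adjusted p = 0.00188, n = 2 per group), and CDH1 was not called between the siRNAs (-0.06 ± 0.11, limma adjusted p = 0.811).

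**Figure D5:**
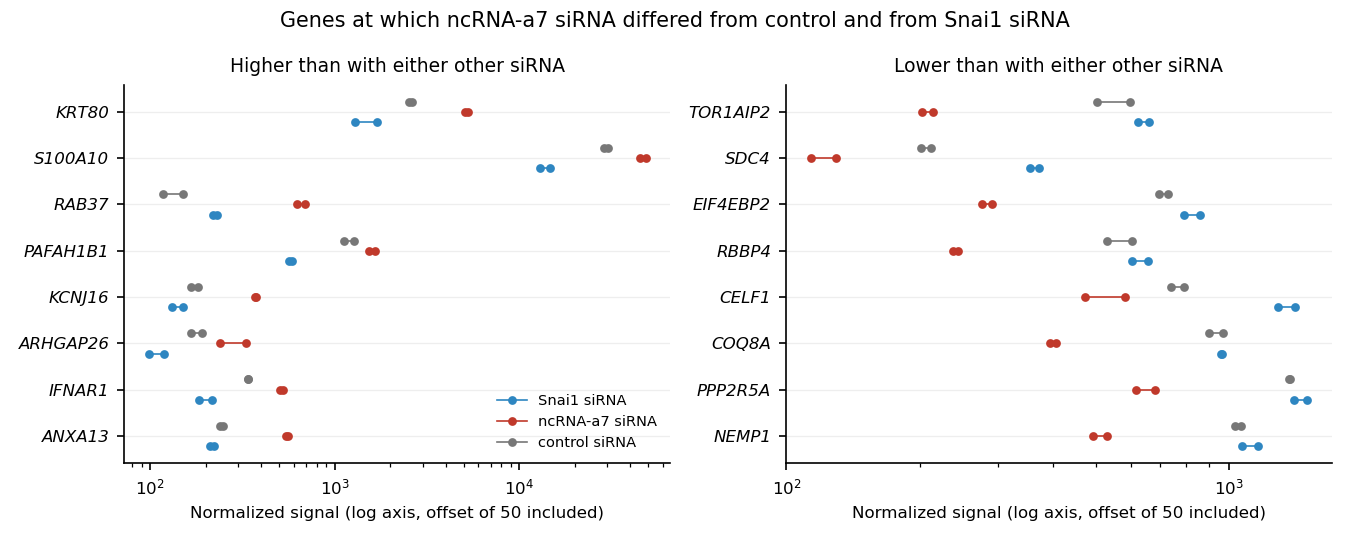
Normalized signal on each array (log axis, offset of 50 included) of the 8 genes furthest above (left) and the 8 furthest below (right) Snai1 siRNA among genes called in the same direction against control; dots are arrays, grey for control, red for ncRNA-a7 and blue for Snai1 siRNA, and lines join the 2 arrays of a group. The ncRNA-a7 dots lie outside the control and Snai1 dots in every gene drawn, and the genes were picked for this.

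Genes near the target gave 2 calls among 16 tested, both lower, where all features gave 5.78% higher and 4.16% lower. In so few genes 1 call moves the share widely. Of the 8 tested genes on each side of TRERNA1 along chromosome 20, by order in RefSeq, 0 rose and 2 of 16 fell in limma. At an unadjusted p under 0.05 in limma 0 were higher and 3 lower, where 4797 of 19730 features passed in either direction. DDX27, an RNA helicase, changed by -0.56 ± 0.16 and PTPN1, a protein tyrosine phosphatase, by -0.52 ± 0.14 (limma adjusted p = 0.0426 and 0.0409, n = 2 per group). Both calls were lost without ncRNA-a7 siRNA replicate 1 (adjusted p = 0.230 and 0.231). CEBPB, RNF114 and UBE2V1 were not called, at -0.12, -0.18 and -0.06. Over chromosome 20, 25 of 368 tested genes rose (6.79%) and 18 fell (4.89%), with a median log2 change of 0.01.

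How often a second probe moved with the first could be read in 556 called genes with another probe above the filter. In 487 of them (87.6%) the second probe moved the same way, and among genes changed at least 2-fold it did so in 45 of 48. Among genes not called, 69.6% of second probes shared the sign. Calls depended on brightness: 1.16% of features were called in the dimmest of 4 equal groups, then 6.79% and 16.8%, and 15% in the brightest.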

How the data were processed

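Bead-summarized intensities of 48701 probes on 6 arrays were deposited by the authors as a scanner table that per its values is neither log-transformed nor brought to 1 scale. The deposited series matrix holds the same intensities multiplied by a constant per array, 0.783 to 1, which brought each array to a mean of 715, and was used as an alternative. Labelling was with biotin and RNA was taken with TRIzol, per the labels' protocols. The scanner and its settings are not given in the sources used here.

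From the scanner intensities, background was corrected with limma's normexp (offset 50), arrays were quantile normalized and the deposited intensities were thereby turned into log2 values. The brighter 50% of probes by mean log2 value were kept (24350), and the brightest probe on average stood for each gene, which gave 19730 features, 13057 of them named. Symbols came from the platform annotation, in which 28044 probes had 1 symbol, 13 several and 20644 none. All 6 arrays entered 1 limma fit (lmFit, eBayes) with a contrast for each pair of groups, 3 residual and 8.9 prior degrees of freedom, and Benjamini-Hochberg adjustment over all features. A feature was called at an adjusted p under 0.05. Motifs were counted in 1 RefSeq promoter window per gene (GRCh38.p14), so other starts of a gene were left out. The fit was tested on simulated data.

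The members and gene lists were chosen with earlier results of these data known. Named genes were AURKA, CDH1, VIM, SNAI1 and TRERNA1, the 20 largest rises and falls in features above the dimmest 25% whose arrays did not overlap, up to 4 called members per list and direction by p, and the 8 largest differences from Snai1 siRNA per direction among genes called against both groups. Replicate numbers did not pair the arrays: correlations of same-numbered deviations were -0.00636, -0.0663 and 0.0124. Alternatives changed the scaling, background, offset, filter, probe rule, variance prior, minimum change, starting values, arrays in the fit and a block on replicate number, and each array was left out in turn. R 4.3.3, limma 3.58.1, Python 3.11.15, pandas 2.3.3, numpy 2.4.6 and matplotlib 3.10.9 were used.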

Additional observations from a re-analysis of the deposited data

How the results depend on the processing

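With 2 arrays per group, calls against control were fewest without control siRNA replicate 1 and calls against Snai1 siRNA fewest without Snai1 siRNA replicate 2. With 1 array left out, calls against control ranged from 563 to 1768 (377 to 1052 higher, 186 to 716 lower), and 143 to 173 at 2-fold. Calls against Snai1 siRNA ranged from 341 to 1153 (204 to 680 higher, 137 to 473 lower), and 83 to 99 at 2-fold. Median scaling gave 922 calls against control (451 higher, 471 lower) and 698 against Snai1 siRNA (493 and 205). A minimum change of 1.2-fold gave 399 (275 and 124) and 199 (118 and 81). No filter gave 822 (537 and 285) and 498 (302 and 196). An offset of 16 gave 1031 (662 and 369) and 569 (335 and 234). No background correction gave 1296 lower against control, and 2487 against Snai1 siRNA with 1118 lower and 49 at 2-fold. A trended robust prior gave 1335 lower against control and 2574 against Snai1 siRNA (1410 and 1164). The brightest 25% of probes gave 1349 lower and 2498 against Snai1 siRNA with 1165 lower. Only the compared arrays gave 441 lower against Snai1 siRNA. The replicate block gave 1730 and 1433 calls. Cyclic loess, the authors' matrix and the mean of a gene's probes kept every count within 1.5 times. Over 245 named genes and 18 settings, 3627 of 4377 values kept direction and side of the threshold, 747 lost the call, 3 gained it (VIM) and 0 reversed. The causes were not tested. Dim probes limit what could be read: 1.16% of features were called in the dimmest group.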
